A study of Sus scrofa with 21 samples.

Results

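Kidney and liver arteries of pigs (Sus scrofa) were each sampled with a 3D-printed microbrush, a small brush passed through a vessel to pick up cells of its wall, and the RNA was sequenced in bulk. The comparison described here sets 5 kidney microbrush libraries against 4 liver microbrush libraries, 9 of the 21 libraries in the series. Microbrush libraries were taken by their device and tissue labels, and 1 further liver library was left out because it held counts for only 3831 genes, under the minimum of 5000 set for the comparison. The kidney group, labelled as peripheral kidney artery, had 3 libraries from pig 243K (kidney brush 2, 4 and 5) and 2 from pig 248K (kidney brush 1 and 3). The liver group, labelled as peripheral liver artery, had 2 libraries from pig 243K (liver brush 2 and 5) and 2 from pig 248K (liver brush 3 and 4). The labels used here give no strain, age, sex or treatment for the pigs. The rest of the series was 4 libraries from a bare Nitinol wire (2 for each organ, from the same 2 pigs), 4 from aorta of pig 237053 and 3 from whole blood. Libraries of 1 pig are not separate animals, so every p-value below measures the spread between libraries. Levels are counts scaled to 1000000 in each library (CPM) after scaling of the 9 libraries, and fold changes are log2 differences, kidney minus liver.

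An artery is lined by endothelium and held by smooth muscle, and a brush drawn through it can also carry blood. HOX genes are transcription factors that lie in 4 clusters in mammals. Cells switch them on along the body axis in the order in which they lie, the low-numbered paralogues toward the head and the high-numbered ones toward the tail, and cells of the adult vessel wall keep part of that pattern. COMP and TNC code for matricellular proteins, which are secreted into the matrix and alter how cells hold to it, and PPBP codes for a chemokine that platelets store. The roles given for genes are those described in human and mouse.

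Total counts ran from 1144932 to 4438691 in the kidney libraries and from 1862823 to 10188552 in the liver libraries. At an equal depth of 1000000 counts the kidney libraries held 17922 ± 1643 genes (SD, n = 5) and the liver libraries 15235 ± 3972 (SD, n = 4). This difference did not pass an exact two-sided permutation test (p = 0.214, adjusted p = 0.321 over 3 library measures; the smallest p the design allows is 0.00794). Liver brush 2 and 5, both from pig 243K, stood apart from the other libraries. They were the deepest of the 9, yet 26.7% and 15.7% of the tested genes were at 0 in them, against 0.0694% to 7.15% in the other 7. Of the 15222 genes with counts in all 5 kidney libraries, 3858 were at 0 in liver brush 2 and 2165 in liver brush 5, compared with 20 in liver brush 3 and 141 in liver brush 4. Values without liver brush 2, without both, or within pig 248K are therefore given beside most lists and some of the genes that are highest or lowest in them. The scaling factor was 0.36 for liver brush 2 and 0.57 for kidney brush 1, which raises levels there, and 0.84 to 2.03 for the other 7.

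**Figure D1:**
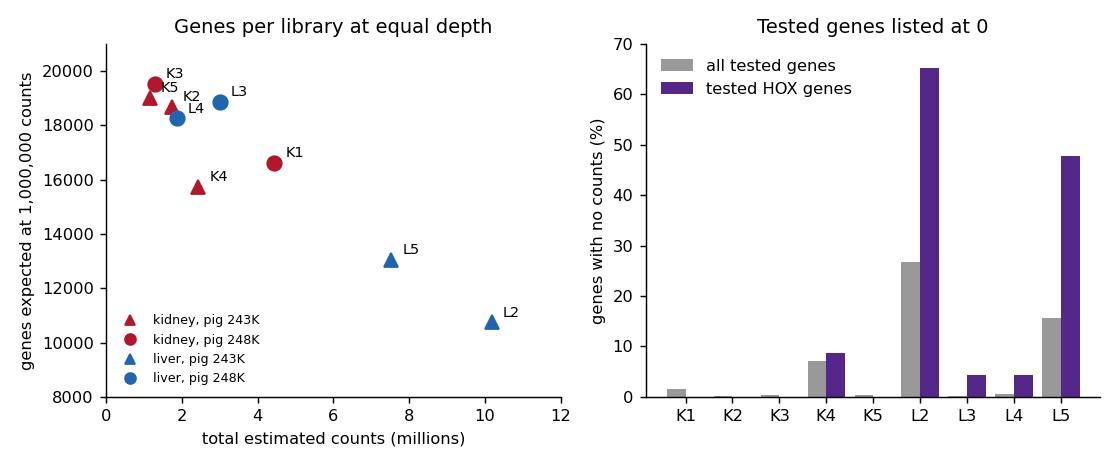
Left, total estimated counts (axis scaled by 1000000) against the genes expected at 1000000 counts, one point per library (K kidney, L liver; colour for organ, shape for pig). Right, the percent of all 15845 tested genes and of the 23 tested HOX genes with no counts, by library; liver brush 2 and 5 lie lowest at left and have the tallest bars at right, with 65.2% and 47.8% of HOX genes at 0.

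Across 15845 genes that passed the filter on low counts, 0 genes (0%) differed between kidney and liver at an adjusted p under 0.05 in edgeR's quasi-likelihood test, and the smallest adjusted p was 0.999. At an unadjusted p under 0.05 there were 359 genes, 30 higher in kidney (0.189% of those tested) and 329 higher in liver (2.08%). In all, 64.4% of the tested genes had a positive fold change, and the median was 0.24, so small positive values are the ordinary case in this comparison. The 5 kidney libraries lay wholly above the 4 liver libraries for 80 genes (0.505%), and the 4 liver libraries lay wholly above the kidney libraries for 14 (0.0884%). Of the 329 liver-side genes, 317 had their highest liver level in liver brush 2. Limma voom with quality weights also called 0 genes (271 at an unadjusted p under 0.05). DESeq2 called 71, of which 3 (COMP, TNC and IGFBP5) were higher in kidney and 68 were higher in liver. All 68 had their highest liver level in liver brush 2, and DESeq2 without that library called 0 (246 at an unadjusted p under 0.05). Without liver brush 2 edgeR also called 0, and its 87 genes at an unadjusted p under 0.05 were 45 higher in kidney and 42 higher in liver.

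HOXC6 had the smallest p on the kidney side of any gene with a symbol and at least 10 CPM. This gene lies in the middle of the HOXC cluster (chromosome 5, 19230227 to 19243522, Sscrofa11.1). Its level was 19.1, 21.8, 9.41, 38.8 and 5.75 CPM in kidney brush 1 to 5, and 0, 2.50, 1.57 and 0 CPM in liver brush 2 to 5. Every kidney library lay above every liver library, and both liver libraries of pig 243K were at 0. The counts behind these levels were small, 12 to 90 in the kidney libraries and 0 to 8 in the liver libraries. The fold change was 4.25 ± 1.34 (SE; unadjusted p = 0.00882, adjusted p = 0.999, edgeR).

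HOXA10, a paralogue of the posterior part of the HOXA cluster (chromosome 18, 45393525 to 45403259), followed the same order of groups. It stood at 25.5, 31.0, 13.3, 59.5 and 11.0 CPM in kidney brush 1 to 5 and at 0, 4.68, 4.72 and 0 CPM in liver brush 2 to 5. The groups did not overlap, and the fold change was 3.62 ± 1.34 (SE; unadjusted p = 0.0201, adjusted p = 0.999, edgeR). HOXA5, an anterior to middle gene of that cluster, was the third with an unadjusted p under 0.05. It had 103.1, 212, 49.0, 200 and 73.8 CPM in the kidney libraries and 0, 35.9, 26.7 and 15.7 CPM in the liver libraries, a fold change of 2.71 ± 1.06 (SE; unadjusted p = 0.0269, adjusted p = 0.999, edgeR). HOXA5 differed from HOXC6 and HOXA10 in being present in liver brush 5.

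Libraries of the 2 organs also did not overlap for HOXC4, HOXC8 and HOXC10, which makes 6 of the 23 tested HOX genes, against 0.505% of all genes. This count only describes these genes. A gene can pass the filter on low counts through the kidney libraries alone, and HOXC6 and HOXA10 were chosen with earlier results known. In liver brush 2 and 5, 65.2% and 47.8% of the 23 were at 0, against 26.7% and 15.7% of all tested genes. The share over all genes was not matched for level. From other lists, FGB, CDH16 and SOX9 also had 0 counts in both libraries, and ALB had 4 and 2. HOXC4 ranged from 47.8 to 85.3 CPM in kidney and stood at 1.09, 37.1, 30.4 and 1.11 CPM in liver brush 2 to 5. HOXC10 ranged from 13.4 to 53.4 CPM in kidney and stood at 0, 11.9, 6.29 and 0 CPM in liver. HOXC8 ranged from 12.9 to 20.7 CPM in kidney and stood at 2.46, 9.05, 1.57 and 0 CPM in liver. For HOXC4 the 2 liver libraries of pig 248K lay close under the kidney range, while those of pig 243K lay far below it. For HOXC8 liver brush 3 lay nearest to the kidney range, and the other 3 liver libraries were farther below it.

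**Figure D2:**
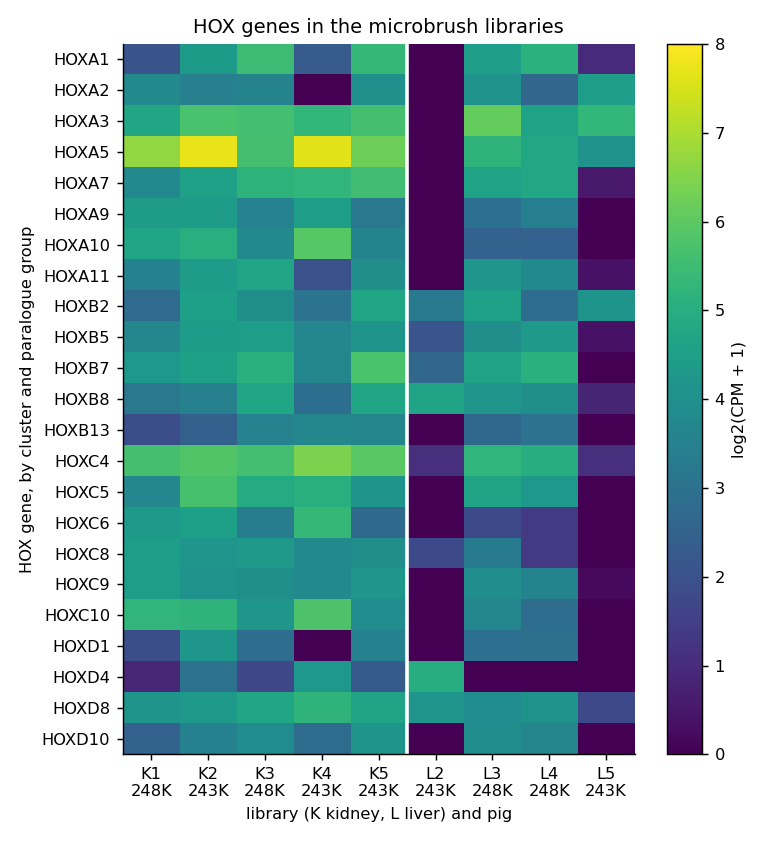
Levels of the 23 tested HOX genes as log2(CPM + 1), one row per gene and one column per library with its pig below it; the white line parts kidney (left) from liver (right). HOXC6, HOXA10 and HOXC10 are darker in all 4 liver columns, and liver brush 2 and 5 have 15 and 11 genes at 0.

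The count table held 34 HOX genes, and 23 passed the filter on low counts. Of these 23, 21 had a positive fold change (64.4% of all tested genes did), with a median of 1.18 against 0.24 over all genes. A gene can pass this filter through the kidney libraries alone, so these counts only describe the genes that passed; with no filter 29 of all 34 were positive, with a median of 0.98. None of the 23 passed the adjusted threshold, and 3 had an unadjusted p under 0.05, all higher in kidney. HOXA2 and HOXD4 were the 2 with a negative value. HOXD4 was at 30.8 CPM in liver brush 2, at 0 in the other 3 liver libraries and between 0.796 and 18.1 CPM in kidney. With RLE scaling in place of TMM, 22 of 23 were positive, with a median of 1.20. By position, the 7 tested genes of paralogue groups 1 to 4 had a median of 0.36 with 5 positive, the 9 of groups 5 to 8 had 1.30 with all positive, and the 7 of groups 9 to 13 had 1.41 with all positive. By cluster, HOXC had the highest median of the 4 (2.08 over 6 genes), followed by HOXA (1.13 over 8), HOXB (0.86 over 5) and HOXD (0.85 over 4).

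The summed level of all 34 HOX genes, tested or not, was 464, 740, 552, 739 and 590 CPM in kidney brush 1 to 5. In liver brush 2 to 5 it was 120.6, 434, 346 and 109.2 CPM. All kidney sums lay above all liver sums, and the narrowest gap was between kidney brush 1 and liver brush 3. The low sums of liver brush 2 and 5 came with 15 and 11 of the 23 HOX genes at 0 (1 each in liver brush 3 and 4, 2 in kidney brush 4 and 0 in the other kidney libraries). These are the 2 libraries in which many other genes were at 0 too. The values in pig 248K, whose liver libraries held 20001 and 18952 genes, bear on this directly.

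In pig 248K alone, with kidney brush 1 and 3 against liver brush 3 and 4, 15 of the 23 HOX genes that passed the filter there were positive (51% of all tested genes) and the median was 0.18 against 0.02 over all genes. Of the 23 tested in the 9 libraries, 22 were tested in this pig, 14 of them positive with a median of 0.13, and the values by cluster and position below are from these. HOXC6 still had a fold change of 2.77 ± 1.04 (SE; unadjusted p = 0.0226, adjusted p = 1, edgeR) and HOXA10 one of 2.05 ± 0.911 (SE; unadjusted p = 0.0467, adjusted p = 1, edgeR). HOXC8 was at 1.87, HOXC10 at 1.60 and HOXA5 at 1.29. HOXA7, HOXC5 and HOXB7, on the other hand, lay at -0.05, -0.07 and -0.12. The median over the HOXC cluster was 1.07, over HOXA 0.21, over HOXB 0.02 and over HOXD -0.47. In this pig the posterior groups 9 to 13 had 6 of 7 genes positive with a median of 0.54, and the anterior groups 1 to 4 had 2 positive with a median of -0.29. Leaving out liver brush 2 and 5 but keeping all kidney libraries, a setting chosen after seeing the data, gave 16 of 26 HOX genes positive with a median of 0.32, with HOXC6 at 3.15 and HOXA10 at 2.55.

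**Figure D3:**
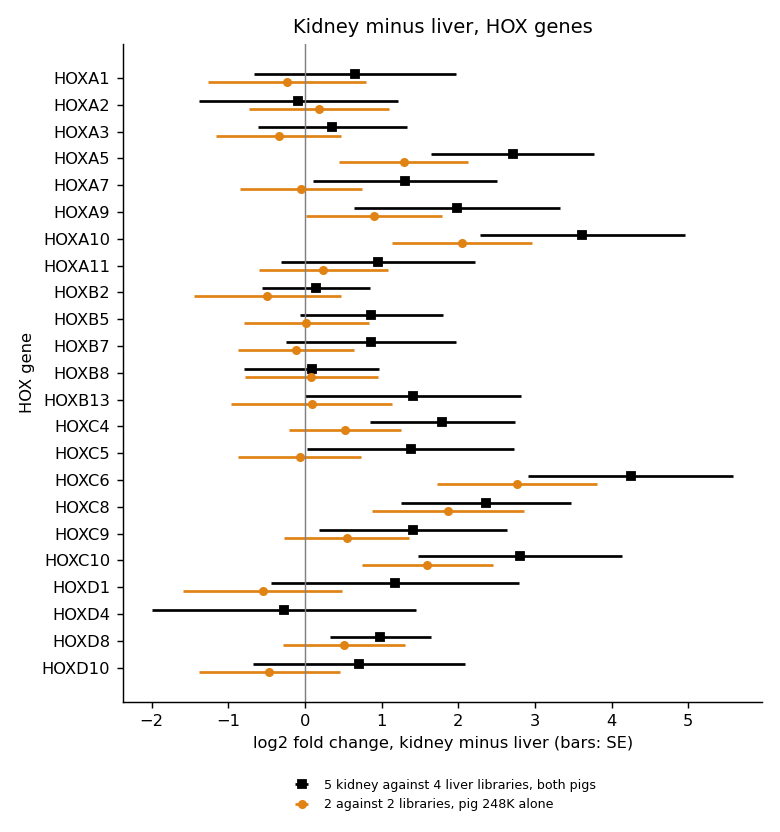
Log2 fold change, kidney minus liver, with its standard error for each HOX gene: squares for all 9 libraries, circles for pig 248K alone (HOXD4 could not be tested there). HOXC6, HOXA10, HOXC8 and HOXC10 are positive in both, at 2.77, 2.05, 1.87 and 1.60 in pig 248K, while most other genes lie near 0 in that pig.

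In pig 248K alone 0 genes were called by edgeR (50 at an unadjusted p under 0.05), and in pig 243K alone 901 were, of which 870 were higher in kidney. In pig 243K, 8 HOX genes were at 0 in both liver libraries: HOXA9, HOXA10, HOXB13, HOXC5, HOXC6, HOXC10, HOXD1 and HOXD10. Zeros in both of these libraries were not particular to HOX genes. Of the 15222 genes with counts in all kidney libraries, 1651 had counts in both pig 248K liver libraries and none in both of pig 243K. A count of 0 allows at most 3 counts, which is 0.819 CPM in liver brush 2 and 0.476 CPM in liver brush 5, counting error only. Against the mean of these limits, the kidney libraries of that pig were at least 34.1-fold higher for HOXC6, at least 52.3-fold higher for HOXA10 and at least 14.4-fold higher for HOXB13, the lowest of the 8. A model with an organ by pig term tested whether the organ difference itself differed between the pigs. It called 1449 of 17444 genes (8.31%), 1430 of them with a larger kidney excess in pig 243K, and 9 of the 23 HOX genes were among them: HOXA7, HOXA9, HOXA10, HOXB13, HOXC4, HOXC5, HOXC9, HOXC10 and HOXD10. HOXC6 was not, with an adjusted p of 0.0703 in edgeR. The count of 1449 was not stable. It was 0 with RLE scaling, 0 without kidney brush 1, 2 or 5 or liver brush 3 or 4, 678 without liver brush 2, 861 without kidney brush 3 and 2727 without kidney brush 4. With the pig as a block in place of the interaction, 23 of 25 tested HOX genes were positive, with a median of 2.81. Of all genes in that fit 67.2% were positive, with a median of 0.40. A median of that size was not particular to HOX genes. Kidney tubule and podocyte genes had 2.83, hepatocyte genes 2.26, bile duct genes 2.20 and platelet genes -2.72.

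The libraries from other sources were scaled together with the brush libraries over 19 libraries, so their levels stand apart from those above. HOXA10 was at 0 in all 4 wire libraries, at 4.55 to 14.0 CPM in aorta, and averaged 29.8 ± 17.2 CPM (SD, n = 5) on the kidney brush and 3.01 ± 3.49 CPM (SD, n = 4) on the liver brush. HOXC6 was at 0 in 3 wire libraries and at 2.31 CPM in liver wire 1, at 0.936 to 6.86 CPM in aorta, and averaged 19.9 ± 11.46 CPM (SD, n = 5) on the kidney brush. The aorta range for HOXC6 lay below all 5 kidney brush libraries, of which the lowest was at 8.44 CPM. Whole blood held counts for HOX genes too. In blood 1 and blood 3, of 5301288 and 3224540 total counts, HOXA10 had 15 and 24 and HOXC6 had 4 and 13. Liver brush 3 had 15 and 8 for these genes, of 3006241. HOXC4 had 43 and 148 counts in blood 1 and blood 3, against 122 to 198 on the kidney brush. Because the wire libraries held no counts or almost none for HOXC6 and HOXA10, the wire gave no second reading of their difference.

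Other transcription factors of regional identity came next. Of 34 tested, 25 were positive with a median of 0.31, close to the 0.24 of all genes, and 1 had an unadjusted p under 0.05. Within pig 248K 9 of 34 were positive (median -0.25), and without liver brush 2 and 5 16 of 39 were (median -0.11). That gene was MEIS1, a cofactor that binds DNA together with HOX proteins, and its fold change was -1.95 ± 0.77 (SE; unadjusted p = 0.0277, edgeR). MEIS1 was at 569 CPM in liver brush 2 and between 35.0 and 80.2 CPM in the other 8 libraries. Without liver brush 2 its value was -0.33. GATA4, a factor of heart and foregut mesoderm, stood at 0, 56.5, 8.39 and 109.3 CPM in the liver libraries and at 3.88 to 16.8 CPM in the kidney libraries (unadjusted p = 0.088, edgeR).

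COMP, the cartilage oligomeric matrix protein of the thrombospondin family (chromosome 2, 59061409 to 59068951), had the highest fold change of the kidney-side genes named. It was at 172, 102.01, 14.1, 489 and 1.92 CPM in kidney brush 1 to 5, and at 0, 2.18, 0.524 and 17.8 CPM in liver brush 2 to 5. Kidney brush 1, 2 and 4 lay above all liver libraries, and kidney brush 3 and 5 fell within the liver range. The fold change was 4.86 ± 1.70 (SE; unadjusted p = 0.0154, adjusted p = 0.999, edgeR), and DESeq2 gave 4.89 with an adjusted p of 0.0321. In pig 248K alone it was 5.98 ± 1.38 (SE; unadjusted p = 0.0013, adjusted p = 1, edgeR). COMP had at most 0.65 CPM in the 4 aorta libraries and 0 in all 4 wire libraries, on the scale of the 19 libraries.

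TNC, tenascin C, a matrix glycoprotein made in growing and remodelled vessels (chromosome 1, 255533235 to 255630381), was at 574, 284, 94.1, 1217 and 55.6 CPM in kidney and at 92.8, 53.7, 50.3 and 48.4 CPM in liver. Liver brush 3, 4 and 5 were close to each other and liver brush 2 was higher, while the kidney libraries spread over a wide range that began below liver brush 2. Its fold change was 2.86 ± 0.973 (SE; unadjusted p = 0.0133, edgeR; adjusted p = 0.032, DESeq2). IGFBP5, a secreted binding protein for insulin-like growth factors, was at 632, 247, 103.2, 582 and 105.9 CPM in kidney and at 28.1, 76.1, 89.6 and 54.1 CPM in liver. Its groups did not overlap, and its fold change was 2.43 ± 0.8 (SE; unadjusted p = 0.011, edgeR; adjusted p = 0.0297, DESeq2). COMP, TNC and IGFBP5 remained positive in all 22 alternative settings, at 3.76 to 7.34, 1.60 to 3.17 and 1.16 to 2.77.

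The kidney libraries with high COMP and TNC were also those rich in smooth muscle transcripts. Summed over the 20 smooth muscle genes, all of them tested, the level was 68676, 32107, 4897, 131429 and 4077 CPM in kidney brush 1 to 5 and 41070, 55731, 7968 and 125452 CPM in liver brush 2 to 5. MYH11, the smooth muscle myosin heavy chain, was at 36509, 16965, 2471, 74200 and 1974 CPM in kidney and at 680, 32503, 707 and 64762 CPM in liver, a fold change of 0.10 ± 1.56 (SE; unadjusted p = 0.95, edgeR). No smooth muscle gene reached an unadjusted p under 0.05, and 8 of the 20 were positive with a median of -0.07. This median turned on single libraries. It was 1.03 with 18 positive without liver brush 5, 0.21 without kidney brush 3, 0.08 without kidney brush 5, -0.46 without liver brush 2 and -0.98 with 0 positive without kidney brush 4. Of the same 20 genes, 16 were positive in pig 248K alone (median 0.23), and without liver brush 2 and 5 18 were (median 0.73). Liver brush 3 and 5 had MYH11 in the range of kidney brush 1, 2 and 4, but COMP at 2.18 and 17.8 CPM against 102.01 to 489 CPM there. The part of muscle content in the COMP and TNC difference was not tested. In such bulk libraries fewer cells of a type and less RNA per cell cannot be told apart.

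**Figure D4:**
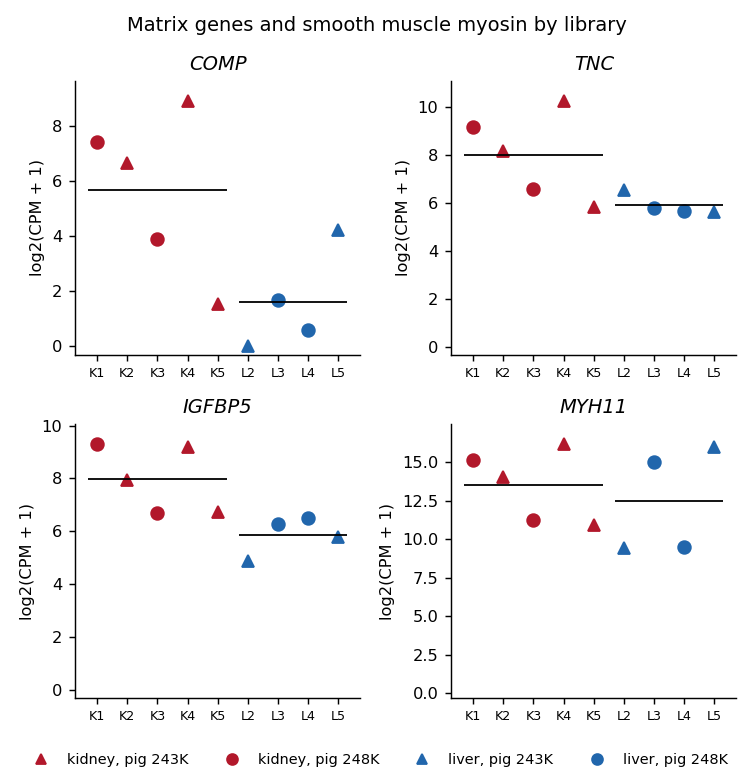
COMP, TNC, IGFBP5 and MYH11 in each library as log2(CPM + 1), with colour for organ and shape for pig; black lines are group means on that scale. COMP and TNC are highest in kidney brush 1, 2 and 4, which also have high MYH11, whereas liver brush 3 and 5 have high MYH11 with COMP at 2.18 and 17.8 CPM.

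The other matrix genes had values on both sides. Of 44 tested matricellular and proteoglycan genes, 18 were positive with a median of -0.32. COMP and TNC were the 2 kidney-side genes at an unadjusted p under 0.05, and FBLN1, fibulin 1, was the 1 on the liver side. FBLN1 was at 1341 CPM in liver brush 2 and 346 CPM in liver brush 5, against 30.6 to 64.5 CPM in the other 7 libraries. Among 19 collagens 5 were positive (median -0.75), and among 17 elastic fibre genes 1 was (median -0.69). Limma voom with quality weights, which gives less weight to libraries that stand apart, put these lists on the other side: 15 of 19 collagens were positive (median 0.43), 9 of 17 elastic fibre genes (0.04) and 29 of 44 matricellular genes (0.19). The part of these weights in the change of sign was not tested. Without liver brush 5 the 3 medians were likewise 0.36, 0.01 and 0.24, and in pig 248K alone they were -0.35, -0.33 and -0.29. COL14A1 and LTBP2, the gene with the smallest p in each, were again high in liver brush 2 and 5: 1242 and 752 CPM for COL14A1 against 49.6 to 178 CPM elsewhere, and 4394 and 659 CPM for LTBP2 against 52.9 to 164 CPM elsewhere. Without these 2 libraries FBLN1 was at 0.29, LTBP2 at 0.82 and COL14A1 at -0.31.

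ST3GAL1, a Golgi sialyltransferase, and MAN1C1, a Golgi mannosidase that trims N-linked sugars, completed the 6 kidney-side genes named by p. ST3GAL1 was at 96.0, 62.5, 53.7, 53.9 and 53.7 CPM in kidney and at 23.2, 30.6, 34.6 and 13.0 CPM in liver, a fold change of 1.34 ± 0.443 (SE; unadjusted p = 0.0112, edgeR). MAN1C1 was at 88.8, 26.6, 18.8, 40.9 and 31.1 CPM in kidney and at 18.3, 14.98, 10.5 and 10.5 CPM in liver, a fold change of 1.60 ± 0.569 (SE; unadjusted p = 0.0161, edgeR). Neither gene overlapped between the organs, although kidney brush 3 exceeded liver brush 2 for MAN1C1 by less than 1 CPM. Both kept a positive value in all 22 settings. All 17 immediate early genes, which cells switch on within minutes of a stimulus, had a positive value with a median of 0.65, and ATF3 and MYC had an unadjusted p under 0.05. ATF3 was at 417 CPM in kidney brush 2, at 30.2 to 81.2 CPM in the other kidney libraries and at 8.57 to 55.2 CPM in liver. In pig 248K alone 9 of these 17 were positive, with a median of 0.14, and without kidney brush 2 the median was 0.26 with 14 positive.

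On the liver side the 6 genes with the smallest p were PROS1, PTGES3L, PAM, TWF1, ITGA2 and UBE2D2. PROS1, protein S, an anticoagulant cofactor that is made in the liver and by endothelium and is also held in platelets, was at 562, 30.0, 156 and 36.8 CPM in liver and at 30.7, 16.1, 10.6, 4.74 and 17.7 CPM in kidney. Its fold change was -3.62 ± 0.929 (SE; unadjusted p = 0.00244, edgeR; adjusted p = 0.02, DESeq2). TWF1, twinfilin, which binds actin monomers, was at 1688, 59.9, 486 and 29.4 CPM in liver and at 6.46 to 63.7 CPM in kidney. ITGA2, a subunit of the collagen receptor of platelets and other cells, was at 670, 19.7, 170 and 6.67 CPM in liver and at 5.10 to 33.0 CPM in kidney. For both genes liver brush 2 and 4 were high, and liver brush 3 and 5 lay within the kidney range. PTGES3L, which resembles a co-chaperone, was at 540, 42.8, 124 and 72.2 CPM in liver and at 23.0 to 45.8 CPM in kidney. UBE2D2, a ubiquitin-conjugating enzyme, was at 104.8, 4.06, 15.2 and 7.14 CPM in liver and at 0 to 4.38 CPM in kidney. PAM, an enzyme that amidates peptide hormones, was the one of the 6 without overlap, at 536, 94.9, 163 and 253 CPM in liver and at 20.4 to 89.2 CPM in kidney. Without liver brush 2 the fold changes were -2.21 for PROS1, -2.85 for TWF1, -2.29 for ITGA2, -1.79 for PAM and -1.49 for PTGES3L. UBE2D2 did not pass the filter without that library, and its value in pig 248K alone was -2.08, against -4.06 in all 9 libraries.

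Platelet genes had the lowest median of all 30 lists. All 15 tested, of 16 in the files, were negative, with a median of -2.68, and 7 had an unadjusted p under 0.05 (2.08% of all genes did so on the liver side). PPBP (chromosome 8, 70021468 to 70022490) was at 3223, 138, 757 and 3.81 CPM in liver brush 2 to 5 and at 247, 58.5, 57.6, 33.6 and 75.2 CPM in kidney brush 1 to 5. The highest 2 libraries were from the liver, and so was the lowest. Its fold change was -3.45 ± 1.38 (SE; unadjusted p = 0.0297, adjusted p = 0.999, edgeR; adjusted p = 0.0528, DESeq2). GNG11, a G protein subunit, was at 1475, 71.1, 262 and 55.2 CPM in liver and at 15.9 to 80.0 CPM in kidney. SELP, P-selectin, which platelets and endothelium store and expose on activation, was at 349, 32.1, 120.6 and 3.17 CPM in liver and at 4.74 to 43.4 CPM in kidney. The fold change of GNG11 was -3.47, and -1.62 without liver brush 2; that of SELP was -2.68, and -1.39 without it.

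Summed over the platelet list, liver brush 2 had 35835 CPM, liver brush 4 had 7729, kidney brush 1 had 5479, liver brush 3 had 1602, and the other 5 had 192 to 957, with liver brush 5 the lowest of all. The same libraries led in the share of counts that fell on 2 gene IDs with no symbol here, 38.5% in liver brush 2, 33.2% in liver brush 4, 31.7% in kidney brush 1 and 15.1% in liver brush 3, against 2.66% to 6.94% in the other 5. The part of this in the platelet difference was not tested. Without liver brush 2 the median was -0.92, with 13 of 15 genes negative, and PPBP stood at -1.66. In pig 248K alone 10 of 15 were negative, with a median of -0.84. On the wire all 15 were negative too, with a median of -1.51, while 55% of all genes tested there were positive (median 0.19). PPBP was at 626 and 1852 CPM in the 2 liver wire libraries and at 123 and 440 CPM in the 2 kidney wire libraries, on the scale of the 19 libraries.

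**Figure D5:**
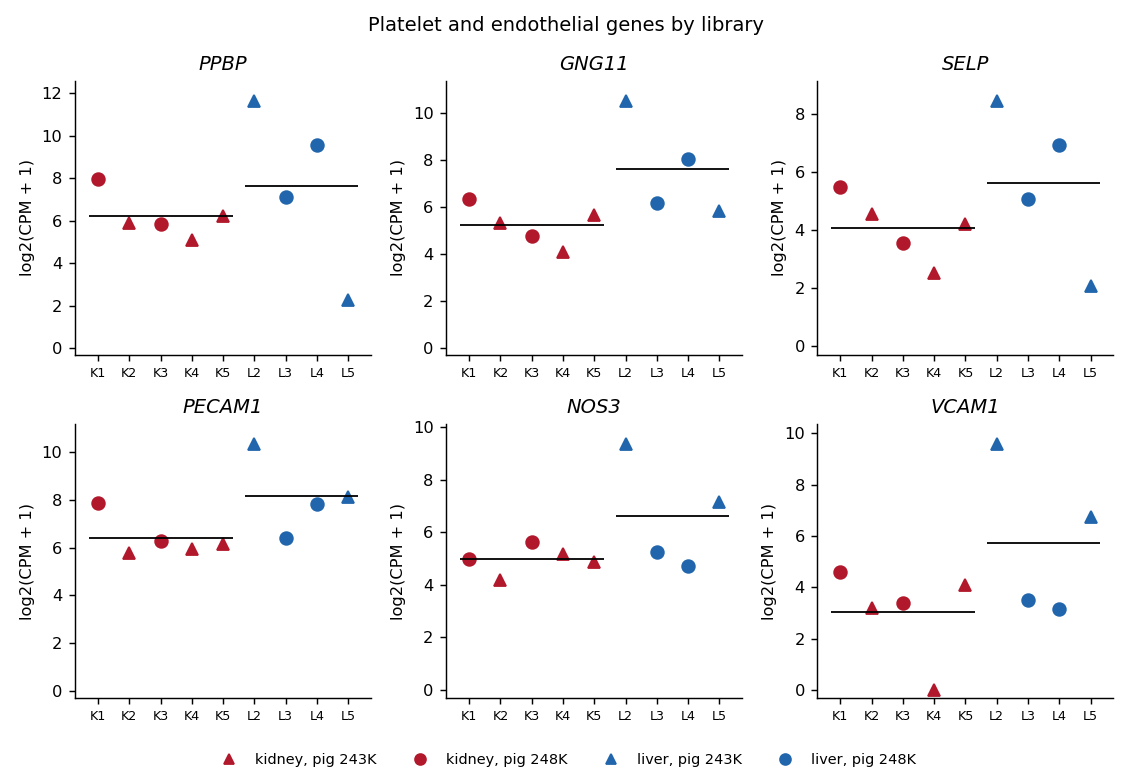
Platelet genes (PPBP, GNG11, SELP) and endothelial genes (PECAM1, NOS3, VCAM1) in each library as log2(CPM + 1), with colour for organ and shape for pig; black lines are group means on that scale. Liver brush 2 is highest for all 6; liver brush 4 follows for the platelet genes, and liver brush 5 for NOS3 and VCAM1, with PPBP at 3.81 CPM.

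Endothelial genes mark the cells that the device is meant to collect. The files held 20, of which 19 passed the filter. The sum over all 20 was 435 to 790 CPM in kidney and 541 to 4591 CPM in liver. The sum was 4591 CPM in liver brush 2 and 1321 CPM in liver brush 5, and 893 CPM or less in the other 7 libraries. In all, 17 of 19 were negative with a median of -0.88, and 7 had an unadjusted p under 0.05 on the liver side (2.08% of all genes). With liver brush 2 left out the median was -0.41 with 17 of 19 negative, and in pig 248K alone it was 0.09 with 13 positive. NOS3, the endothelial nitric oxide synthase, was at 655, 37.4, 25.2 and 140 CPM in liver and at 17.3 to 48.6 CPM in kidney (fold change -2.75 ± 0.899 SE; unadjusted p = 0.0107, edgeR). PECAM1, an adhesion protein of endothelium that platelets also carry, was at 1310, 83.3, 230 and 281 CPM in liver and at 234, 53.6, 76.1, 60.8 and 70.9 CPM in kidney. VCAM1, which activated endothelium uses to hold leukocytes, was at 768 and 104.7 CPM in liver brush 2 and 5 and at 0 to 23.1 CPM in the other 7. Without liver brush 2 and 5, 9 of 19 endothelial genes were positive with a median of -0.03, NOS3 was at 0.02 and VCAM1 at 0.29, whereas PPBP stayed at -2.31 and PROS1 at -2.59.

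No gene of the organs' own cells passed the adjusted threshold. The files held 19 hepatocyte genes, of which 10 were tested, and 0 of them had an unadjusted p under 0.05. Of the 10, 9 were positive with a median of 0.33, but 4 were without liver brush 5 (median -0.10) and 1 of 11 was in pig 248K alone (median -0.33). ALB, albumin, was at 10.4, 23.0, 20.8, 2.15 and 27.8 CPM in kidney and at 1.09, 15.6, 26.7 and 0.317 CPM in liver. ALB was not particular to the brush. It had 5 to 58 counts on the kidney brush, 20 to 82 in aorta, and 35 and 66 in blood 1 and blood 3. Of 14 kidney tubule and podocyte genes 8 were tested, 0 with an unadjusted p under 0.05, and 7 of the 8 were positive with a median of 1.0. In pig 248K 4 of 8 were positive (median 0.06), and without liver brush 2 and 5 7 of 9 were (median 0.20). CDH16, a cadherin of kidney tubules, was at 6.77 to 16.5 CPM in kidney and at 0, 8.43, 7.86 and 0 CPM in liver. CDH16 likewise had 17 to 42 counts on the kidney brush, 8 to 31 in aorta, and 26 and 21 in blood 1 and blood 3. AQP1, a water channel of tubules that red cells and endothelium also carry, was the 1 negative gene, at 224, 41.5, 31.4 and 140 CPM in liver and at 14.9 to 88.4 CPM in kidney, so it made up most of the list's summed level in liver brush 2 and 5 (237 and 147 CPM). Endothelium of the liver sinusoids and of the glomerulus had 5 and 3 tested genes, again with 0 at an unadjusted p under 0.05. For the sinusoid list 5 of 5 were positive (median 0.30), but 1 of 5 in pig 248K alone (-0.43). The glomerular list had 1 of 3 positive (-0.06), and 1 of 3 in pig 248K alone (-0.25). STAB1, a scavenger receptor of sinusoids, had a fold change of 0.10 ± 0.413 (SE; unadjusted p = 0.806, edgeR).

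Over the 9 libraries, lists of blood cells other than platelets had medians of smaller size than the platelet list. In pig 248K alone this did not hold for B cells (median 1.22, against -0.84 for platelets). Of the haemoglobin genes, only HBB, HBM and HBQ1 were found by symbol, so HBA1 and HBA2 are not in the share given. These genes took 0.145% ± 0.109 of the counts in kidney (SD, n = 5) and 0.0372% ± 0.0217 in liver (SD, n = 4). The difference of 0.108 percentage points had p = 0.0556 in an exact two-sided permutation test and an adjusted p of 0.167 over the 3 measures. HBB, a globin of red cells, was at 5646 CPM in kidney brush 1, at 204 to 875 CPM in the other kidney libraries and at 145 to 1303 CPM in liver. Red cell genes had 12 of 14 positive (median 0.41), T and NK cells 10 of 11 (0.78), B cells 6 of 8 (0.91), monocytes and macrophages 9 of 13 (0.41) and neutrophils 6 of 11 (0.22), and in these 5 lists 0 genes had an unadjusted p under 0.05. The counts in pig 248K alone were 7 of 14 for red cells (median -0.01), 7 of 12 for T and NK cells (0.34), 7 of 8 for B cells (1.22), 4 of 13 for monocytes and macrophages (-0.16) and 4 of 11 for neutrophils (-0.11). Mitochondrially encoded mRNA took 3.13% ± 1.64 in kidney (SD, n = 5) and 2.50% ± 2.61 in liver (SD, n = 4; exact permutation p = 0.69).

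Of the remaining lists, arterial endothelium had 5 of 12 positive (median -0.34), pericytes 6 of 8 (0.23), adventitial fibroblasts 6 of 13 (-1.0), lymphatic endothelium 5 of 5 (0.57), bile duct epithelium 4 of 4 (0.67), Schwann cells and neurons 5 of 7 (0.54) and cartilage and bone 5 of 7 (0.80). Within pig 248K, arterial endothelium had 8 of 12 positive (0.23), pericytes 3 of 8 (-0.07), adventitial fibroblasts 8 of 13 (0.17), lymphatic endothelium 3 of 5 (0.18), bile duct epithelium 0 of 4 (-0.32), Schwann cells and neurons 3 of 7 (-0.02) and cartilage and bone 2 of 7 (-0.34), so 6 of these 7 medians had the other sign there. Endothelial activation had 2 of 8 (-1.19), heat shock 2 of 10 (-0.35), the interferon response 1 of 15 (-1.0) and the TGF-beta and mechanical response 9 of 18 (-0.01). Within pig 248K the endothelial activation list had 5 of 8 positive (0.63), heat shock 7 of 10 (0.09), the interferon response 12 of 15 (0.92) and the TGF-beta list 8 of 19 (-0.10). The endothelial activation median was -0.12 without liver brush 2 (3 of 9 positive) and the interferon median 0.14 (11 of 15), and without liver brush 2 and 5 they were 0.18 (5 of 8) and 0.60 (13 of 15). MX1, an antiviral GTPase, was at 531 and 146 CPM in liver brush 2 and 5, at 9.98 and 67.1 CPM in liver brush 3 and 4 and at 9.80 to 173 CPM in kidney.

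The bare wire offered the same organ comparison with 2 libraries on each side. It called 0 of 17896 genes (0%), with 1194 at an unadjusted p under 0.05 in edgeR, while DESeq2 called 214. A fit within pig 248K called 3987, but it set 1 wire library against 1 and took their spread from the brush libraries. Of the 23 HOX genes 12 were positive on the wire, with a median of 0.29. Of all genes tested there 55% were positive, with a median of 0.19, so the HOX count was near the ordinary share. TNC was at 92.4 and 89.4 CPM in the liver wire libraries and at 7.07 and 25.1 CPM in the kidney wire libraries, the opposite order to that on the brush, with a wire fold change of -2.29 ± 1.31 (SE; unadjusted p = 0.0993, edgeR). The difference of organ effects between brush and wire was 5.27 for TNC (unadjusted p = 0.00536, adjusted p = 1, edgeR), and 0 genes passed the adjusted threshold for that difference (761 at an unadjusted p under 0.05, and 43 called by DESeq2). Kidney wire 1 and liver wire 2 held only 9715 and 10169 genes.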

How the data were processed

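RNA came from the RNAdvance Tissue kit, scaled down, and libraries from SMARTer Pico, per the labels' protocols. The tools named are Salmon and DESeq2 and the build is Sscrofa11.1, per the submitters' processing notes; versions, annotation and trimming are not given in the sources used here. The authors deposited estimated counts per Ensembl gene for 24358 genes, not scaled between samples; 14692 had a symbol in the supplied gene names. Coordinates are from RefSeq's Sscrofa11.1 table, matched by symbol (128 of 130 named genes).

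Counts were rounded, filtered with filterByExpr (minimum count 10), scaled by TMM and tested with edgeR 4.0.16 (quasi-likelihood, robust) in R 4.3.3, with Benjamini-Hochberg adjustment over all genes and a threshold of 0.05. The SE is the fold change divided by the square root of the F statistic. Genes at fixed depth came from vegan 2.7.1. Library measures were compared by exact permutation over all splits. DESeq2 1.42.0, limma 3.58.1, other filters and scalings, each pig alone, the pig as a replicate block and each library left out were alternatives; the pig of each library comes from the labels. The tests were tried on simulated data first. Counting limits cover counting error only.

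The members, the 30 gene lists (554 members) and the rule for naming genes were chosen with earlier results of these data known. The rule took the 12 largest folds per direction past the threshold or, where fewer than 4 passed, the 6 smallest p-values, each with a symbol and at least 10 CPM, plus HOXA10, HOXC6, COMP, TNC and PPBP, all tested HOX genes, and the first gene and 3 smallest p-values of each list; 1 gene it took is not reported here. No 2 libraries within a group were copies of one another. No sequences were used here.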

Additional observations from a re-analysis of the deposited data

Results flagged for a closer look

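Among 266 groups of 4 or 5 libraries examined, 13 (4.89%) had a highest or lowest library far from the rest, about the 1 in 20 that chance gives, so the number of such groups is no sign of an effect. Kidney brush 1 was the high library on the log2(CPM + 1) scale for ST3GAL1 (6.60), PTGES3L (5.55), PECAM1 (7.88) and ADAM8 (5.16). Kidney brush 4 was the low one for HOXA2 (0), BMX (0.897) and BPGM (2.81), and kidney brush 3 for COL16A1 (4.64). Among the liver libraries, liver brush 2 was high for TNC (6.55) and HOXD4 (4.99) and low for NGFR (0), and liver brush 5 was low for HOXD8 (1.76) and CD14 (1.37).

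The organ difference differed between the pigs, by the organ by pig term in edgeR, for 9 HOX genes. The fitted difference, pig 248K minus pig 243K on the log2 scale, was -7.63 for HOXA10, -6.86 for HOXA7, -7.75 for HOXA9, -7.74 for HOXB13, -5.37 for HOXC4, -9.70 for HOXC5, -6.30 for HOXC9, -8.09 for HOXC10 and -8.54 for HOXD10. Both liver libraries of pig 243K were at 0 for HOXA9, HOXA10, HOXB13, HOXC5, HOXC10 and HOXD10, so these fitted sizes depend on the prior count and are no bounds. All 9 lost the call with RLE scaling, where 0 genes passed.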

How the results depend on the processing

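The count of 0 genes for the brush was kept with RLE scaling, no filter, a minimum count of 50, voom, an adjusted p under 0.01, a replicate block for the pig (0), summed counts per pig and organ, the common fit with the wire, liver brush 1 included and each library left out (0 to 0). DESeq2 gave 71 for the brush, 214 for the wire, 43 for organ by device and 3162 for organ by pig. Pig 243K alone gave 901 for the brush (870 higher in kidney); pig 248K alone gave 3987 for the wire and 3324 for organ by device. The wire and organ by device counts stayed at 0 (0 to 0) without each library. Organ by pig called 1449 genes, but 0 with RLE scaling, 864 at a minimum count of 50, 0 at an adjusted p under 0.01, 2 with liver brush 1 included and 0 to 2727 with 1 library left out. The cause was not tested. That term has no value in a single pig, with counts summed per pig or without liver brush 2 and 5.

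The excess of genes at fixed depth in kidney (2688) was -488 in pig 248K alone and -648 without liver brush 2 and 5, and 1192 to 3901 with 1 library left out. The mitochondrial difference (0.630 percentage points) was -0.548 and -1.23 in those settings, and 0.00873 to 1.86 with 1 left out. The haemoglobin difference of 0.108 passed on the log2 scale (1.88; exact permutation p = 0.0397) and without kidney brush 3 (exact permutation p = 0.0286), with a range of 0.0626 to 0.134. Over 130 named genes and their settings, 188 of 2802 fold changes differed in sign from the main one, none of them past the adjusted threshold in either fit; 56 genes never did. Low counts limit the HOX genes: 3 counts are 0.476 to 1.57 CPM.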

Other observations

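Among the 80 and 14 genes whose levels did not overlap between the organs, 5 are given here. They code for receptors, enzymes and a matrix protein, and the cells they came from were not tested. All 5 were picked after their values were seen and carry no test beyond the one across all genes. TBXA2R, the receptor for thromboxane, was at 25.9, 23.4, 21.2, 19.0 and 15.8 CPM in kidney brush 1 to 5 and at 5.18, 14.0, 12.6 and 7.93 CPM in liver brush 2 to 5 (unadjusted p = 0.0902, edgeR). PTGER3, a receptor for prostaglandin E, was at 5.65 to 15.1 CPM in kidney and at 0, 2.18, 4.19 and 0.476 CPM in liver (unadjusted p = 0.075, edgeR). On the liver side, GUCY1A1, a subunit of the soluble guanylate cyclase that nitric oxide activates, was at 171, 66.5, 84.9 and 134 CPM in liver and at 36.1 to 62.5 CPM in kidney (unadjusted p = 0.024, edgeR). CAT, catalase, was at 113.2, 27.8, 29.4 and 37.6 CPM in liver and at 2.15 to 25.5 CPM in kidney (unadjusted p = 0.0507, edgeR). UCMA, a matrix protein known from cartilage, was at 5.88 to 23.7 CPM in kidney and at 0, 2.50, 2.62 and 0 CPM in liver (unadjusted p = 0.0372, edgeR). The adjusted p was 0.999 for each of these 5 genes. The fold changes within pig 248K were 0.83 for TBXA2R, 1.18 for PTGER3, -0.82 for GUCY1A1, -0.19 for CAT and 1.76 for UCMA.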
